A study of Rattus norvegicus with 4 samples.

Results

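Keratins are the intermediate filament proteins of epithelial cells, and the genes of 10 keratins of simple and squamous epithelium were followed here in rat colon. They were chosen by name, 5 as keratins of single-layered epithelium (Krt8, Krt18, Krt19, Krt20 and Krt7) and 5 as keratins of stratified squamous epithelium (Krt5, Krt14, Krt15, Krt13 and Krt17). Each of the 10 had 1 row in the deposited table of 26420 RefSeq transcripts. A value on all 4 arrays was given for 6 of them, which are all 5 simple keratins and, of the squamous keratins, Krt15 alone. The rows of Krt5, Krt14, Krt13 and Krt17 were blank on all 4 arrays, so the squamous part of the family is described by 1 gene. The whole table held 18350 rows with a value on every array.

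RNA levels were read on one-color NimbleGen arrays from the colon of male Sprague Dawley rats, each rat having its own array. The 2 rats of the MSCT group received 2,4,6-trinitrobenzene sulfonic acid into the colon, a model of inflammatory bowel disease (IBD), and then mesenchymal stem cells labeled with green fluorescent protein through the tail vein. The 2 rats of the control group received no cells, and the sources differ on whether they had IBD: the sample descriptions call them normal, whereas the design text of the series and the paper name IBD controls. The sources also give more than 1 day for the chips, and the age of the rats was not given. The pieces covered the lesion region, and which layers of the wall they held is not given. In such bulk samples fewer cells of a type and less RNA per cell cannot be told apart. The median intensity of the arrays lay between 848 and 893, and precision is limited by there being 2 arrays in each group.

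Keratin filaments are built from pairs of 1 type I and 1 type II chain. In the columnar epithelium of the gut the main type II chain is Krt8, and its type I partners are Krt18, Krt19 and, in the differentiated cells of the upper crypt and the surface, Krt20. Krt5 with Krt14 or Krt15 forms the filaments of the basal cells of squamous epithelium, Krt13 belongs to the upper layers of squamous mucosa that does not cornify, and Krt17 is known for its induction in injured skin. The filaments are held by desmosomes between cells and by hemidesmosomes at the basement membrane.

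The RefSeq promoter table matched 4 of the 10 genes (Krt8, Krt18, Krt20 and Krt5). Those of the 3 keratins of columnar epithelium among them are shown, because all 3 lay higher on both MSCT arrays, Krt8 by the least. Each is the 250 bases before the annotated start in the rat assembly GRCr8, read 5′ to 3′ on the strand of the gene. Capitals mark matches, on either strand, to the TATA box (TATAAA), to the GC box bound by Sp and Klf factors (GGGCGG), to the AP-1 motif (TGANTCA) or to a short motif of the intestinal factors Cdx1 and Cdx2 (TTTATNG). Krt8 lies on the minus strand at chr7:135010340-135010589, Krt18 on the plus strand at chr7:135035918-135036167 and Krt20 on the minus strand at chr10:84890286-84890535.
Krt8: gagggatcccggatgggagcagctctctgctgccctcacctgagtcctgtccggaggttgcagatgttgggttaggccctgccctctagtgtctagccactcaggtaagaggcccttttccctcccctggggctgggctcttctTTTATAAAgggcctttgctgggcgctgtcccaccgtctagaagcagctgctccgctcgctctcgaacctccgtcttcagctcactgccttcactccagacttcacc
Krt18: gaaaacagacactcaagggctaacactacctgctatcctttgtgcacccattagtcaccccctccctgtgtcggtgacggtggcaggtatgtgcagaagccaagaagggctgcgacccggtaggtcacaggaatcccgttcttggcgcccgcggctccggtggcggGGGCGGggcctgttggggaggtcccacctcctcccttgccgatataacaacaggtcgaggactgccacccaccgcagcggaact
Krt20: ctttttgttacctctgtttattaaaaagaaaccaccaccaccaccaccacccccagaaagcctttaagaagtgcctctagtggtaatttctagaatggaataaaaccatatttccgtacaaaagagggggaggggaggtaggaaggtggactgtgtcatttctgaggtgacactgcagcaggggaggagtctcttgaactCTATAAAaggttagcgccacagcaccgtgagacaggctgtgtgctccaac
The TATA motif was matched in Krt8 on both strands in overlapping letters, from 106 to 99 bases before the start. Krt20 held it once, from 49 to 44 bases before the start, and the Cdx motif, on the other strand, overlapped it. Krt18 held no TATA motif in this window and 1 GC box, from 84 to 79 bases before the start. The AP-1 motif was matched in none of the 3 windows. Of 33469 promoters of the same length, 12.9% held TATAAA, 30.5% GGGCGG, 6.34% TGANTCA and 10.1% TTTATNG, and these matches describe letters only.

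The groups were compared on log2 intensities with limma over all measured rows. The study's screen asks for a p under 0.05 and a difference over 2-fold, and the p was taken here as unadjusted, which the paper does not state. Of the 6 measured keratins, 0 passed the screen as higher and 1, Krt15, as lower in the MSCT group. Of all rows, 2.12% passed as higher and 2.51% as lower. No keratin, and no row of the table, passed an adjusted p of 0.05 (smallest limma adjusted p 0.324 among the keratins and 0.257 over all rows). With 2 arrays in each group the smallest two-sided p of an exact permutation test is 0.333, and the limma p-values therefore rest on a variance shared between rows.

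**Figure D1:**
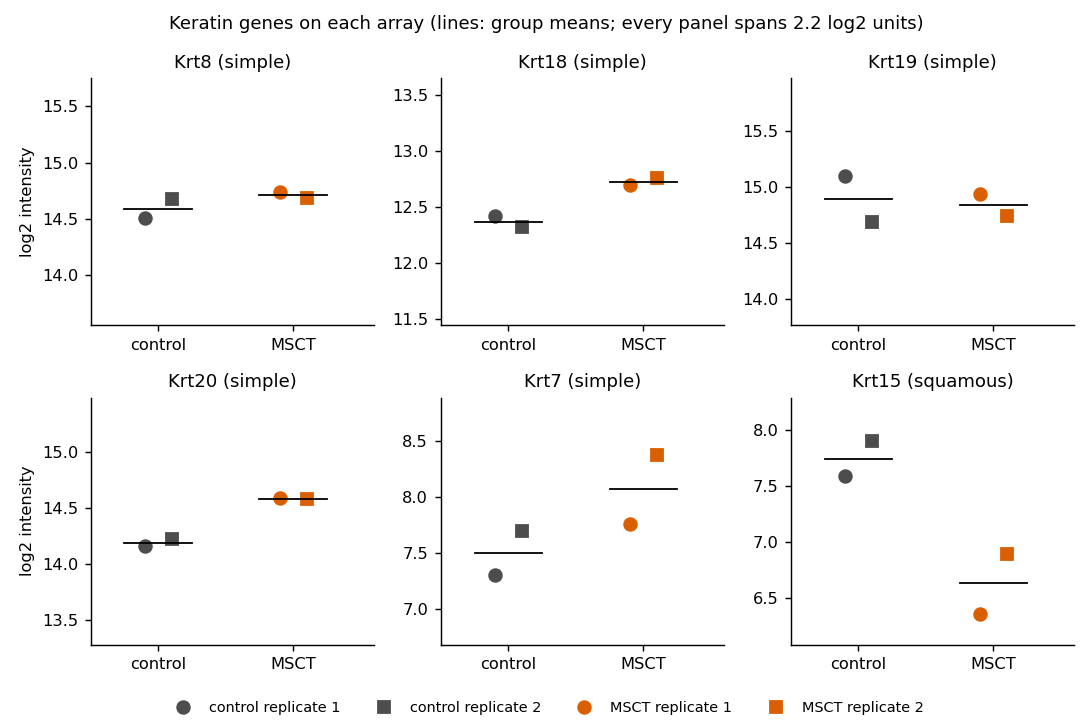
Log2 intensity of the 6 measured keratin genes on each array, with control arrays in gray and MSCT arrays in orange, replicate 1 as a circle and replicate 2 as a square, and the group mean as a line. Krt18 and Krt20 lay close together within each group and higher in the MSCT group, Krt19 overlapped, and both MSCT arrays of Krt15 lay below both control arrays.

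Krt20 (NM_173128), the type I keratin of differentiated colonic cells, had intensities of 18331 and 19096 in the control rats, against 24614 and 24533 in the MSCT rats (replicates 1 and 2). Both MSCT arrays lay above both control arrays, and all 4 pairings of an MSCT with a control array differed by 0.36 to 0.43 on the log2 scale. The control arrays were 0.06 apart and the MSCT arrays 0.0048 apart. The group means were 14.19 and 14.58, and their difference was 0.39 (limma standard error 0.18), which is 1.31-fold. The limma 95% interval ran from -0.09 to 0.88 and the adjusted p was 0.484 (unadjusted 0.0891), so the difference did not pass the screen. The trend and robust options of eBayes let the shared variance depend on intensity and limit the weight of outlying rows. With them the unadjusted limma p of Krt20 was 0.00572 and the adjusted p 0.120, and the 2-fold limit was still not reached. With a block for the replicate number the unadjusted limma p of Krt20 was larger, at 0.111, and the adjusted p was 0.425.

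Krt18 (NM_053976), the usual type I partner of Krt8, had intensities of 5461 and 5131 in the control rats, against 6628 and 6912 in the MSCT rats. The groups did not overlap, and the pairings of arrays differed by 0.28 to 0.43 on the log2 scale. The log2 means were 12.37 ± 0.06 and 12.72 ± 0.04 (SD, n = 2 in each group). The difference was 0.35 (limma standard error 0.18, 95% interval -0.14 to 0.85), which is 1.28-fold, with an adjusted p of 0.517. With the trend and robust options together, its unadjusted limma p was 0.0317 and its adjusted p 0.281. With a block for the replicate number they were 0.144 and 0.459.

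Krt8 (NM_199370), the type II chain to which both bind, had intensities of 23232 and 26207 in the control rats, against 27404 and 26355 in the MSCT rats. The lower MSCT array lay only 0.01 above the higher control array on the log2 scale. The log2 means were 14.59 ± 0.12 and 14.71 ± 0.04 (SD, n = 2). The difference was 0.12 (limma standard error 0.19, adjusted p 0.817), and its 95% interval, as MSCT over control, ran from 0.766-fold to 1.55-fold.

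Krt19 (NM_199498), the type I keratin without a tail domain, had intensities of 34913 and 26363 in the control rats, against 31270 and 27348 in the MSCT rats. Both MSCT values lay between the control values. The log2 means were 14.89 ± 0.29 and 14.84 ± 0.14 (SD, n = 2). The difference was -0.05 (limma standard error 0.23, adjusted p 0.944), with a 95% interval from 0.624-fold to 1.49-fold as MSCT over control. Its sign depended on single arrays, being 0.15 without control replicate 1, 0.04 without MSCT replicate 2 and -0.26 without control replicate 2.

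Krt7 (NM_001047870) is a type II keratin of ducts and of the urothelium rather than of the colonic epithelium. Its intensities were 158 and 208 in the control rats, against 217 and 332 in the MSCT rats, within the dimmest 25% of rows. The groups did not overlap, although MSCT replicate 1 was only 0.07 above control replicate 2 on the log2 scale. The log2 means were 7.50 ± 0.28 and 8.07 ± 0.43 (SD, n = 2). The difference was 0.57 (limma standard error 0.30, 95% interval -0.24 to 1.38, adjusted p 0.524), and it ranged from 0.26 without MSCT replicate 2 to 0.87 without MSCT replicate 1.

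Krt15 (NM_001004022), a type I keratin of basal cells, was the single squamous keratin with values. Its intensities were 192 and 239 in the control rats, against 81.9 and 119 in the MSCT rats. Both MSCT arrays lay below both control arrays, by 0.69 to 1.54 on the log2 scale. The log2 means were 7.74 ± 0.22 and 6.63 ± 0.38 (SD, n = 2). The difference was -1.12 (limma standard error 0.28, 95% interval -1.86 to -0.38), a 2.17-fold lower value, with an unadjusted limma p of 0.0126 and an adjusted p of 0.324. The row lay in the dimmest 25% of rows, where the median SD between replicates was 0.47 against 0.14 in the brightest 25%, and where 6.28% of rows passed the screen. The call was lost without control replicate 2 (difference -0.96, unadjusted limma p 0.0600) and without MSCT replicate 1 (-0.84, 0.0601). It was also lost with the trend and robust options of eBayes used at once (unadjusted limma p 0.0523), with the methods' t-test, and with 50 added to each intensity before the logarithm, where the difference was -0.82.

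Counted together, both MSCT arrays lay above both control arrays in 4 of the 6 keratins (Krt8, Krt18, Krt20 and Krt7), against 21.3% of all rows and 28.4% of the brightest 25% of rows. They lay below in 1 of 6 (Krt15), against 24.5% of all rows. An unadjusted limma p under 0.05 was found for 0 keratins as higher (4.80% of all rows) and for 1 as lower (7.17%). The median difference of the 5 simple keratins was 0.35 on the log2 scale, beside -0.02 over all rows. The 6 genes were chosen with earlier results of these arrays known, and no test was made over them.

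**Figure D2:**
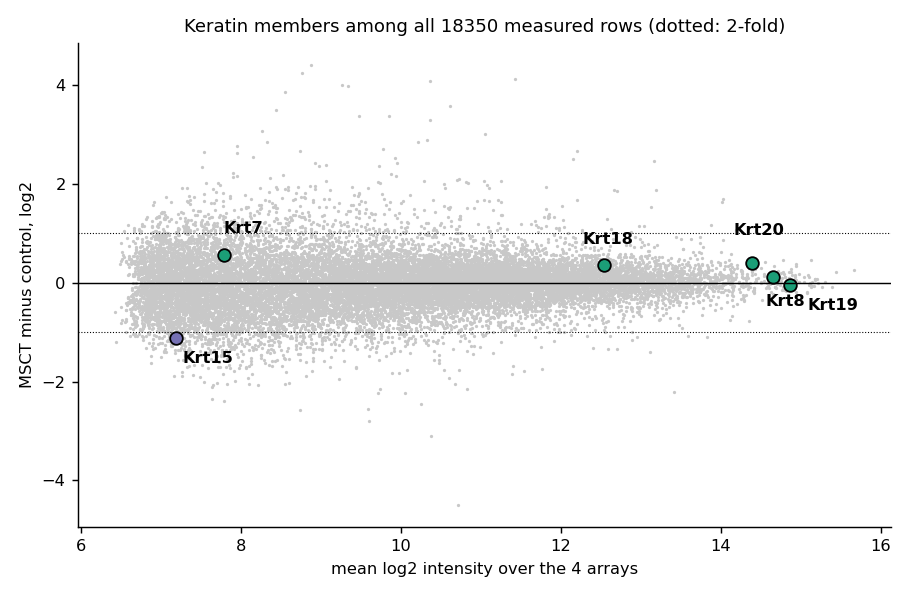
Difference between the groups on the log2 scale (MSCT minus control) against the mean log2 intensity of each of the 18350 measured rows (gray), with the simple keratins in green and Krt15 in violet. Krt8, Krt18, Krt19 and Krt20 lay among bright rows, where differences scatter little, and Krt7 and Krt15 among dim rows, where they scatter widely.

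Set against the rows of like brightness, the differences of the keratins were moderate. In the brightest 25% of rows, 9.74% were as high as Krt20 or higher, 11.9% as high as Krt18 and 34.6% as high as Krt8. In the dimmest 25%, 15.1% were as high as Krt7 or higher, and 4.32% were as low as Krt15 or lower. The 4 reference genes give the same kind of scale: Actb differed by 0.12, Gapdh by -0.19, Hprt1 by 0.44 and B2m by -0.17, and none passed the screen.

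The partner chains can be compared by their change within an array, since a constant difference in probe brightness then cancels. Whether rows as bright as Krt8 rise in proportion to the RNA was not tested. Taken relative to Krt8 and centered on the control mean, Krt18 was at 0.13 and -0.13 in the control rats, against 0.17 and 0.29 in the MSCT rats, a relative difference of 0.23 on the log2 scale. Krt20 relative to Krt8 was at 0.06 and -0.06 in the control rats, against 0.24 and 0.30 in the MSCT rats, a relative difference of 0.27. In both the groups did not overlap. Krt19 relative to Krt8 differed by -0.18 with overlapping groups. Krt20 relative to Krt18 differed by only 0.04, also with overlap. These relative differences were not tested.

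The share of epithelium in the pieces bears on every keratin. All 30 markers of columnar epithelium with a row, of 46 listed, had values, among them Epcam (difference 0.07), Cdh1 (-0.03) and the lectin Lgals4 (0.24). Of the 30, 20 were higher and 10 lower in the MSCT group, with a median difference of 0.14. Higher were 48.0% of all rows and 53.7% of the brightest 25% of rows. Both MSCT arrays lay above both control arrays in 13 of the 30 markers, against 21.3% of all rows and 28.4% of the brightest 25%. They lay below in 6 of the 30 markers, against 24.5% of all rows and 23.3% of the brightest 25%. The log2 of the summed intensity of the markers was 18.52 and 18.62 in the control rats, against 18.68 and 18.65 in the MSCT rats. Relative to the mean of these markers, Krt8 differed by -0.01, Krt18 by 0.22, Krt20 by 0.26, Krt19 by -0.19, Krt7 by 0.43 and Krt15 by -1.25, and none of these was tested. Krt18 and Krt20 kept nonoverlapping groups on this scale, although MSCT replicate 1 of Krt18 (0.16) lay just above control replicate 1 (0.15). Past the screen was 1 marker, Fxyd3, a regulator of the sodium pump, which was higher by 1.06 (limma standard error 0.25, adjusted p 0.311). Elf3, an epithelial transcription factor, differed by -0.72 (standard error 0.19, adjusted p 0.330) and did not reach 2-fold.

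Squamous epithelium lines the anal canal and would carry Krt15 together with the blank keratins. The paper's methods describe the pieces as colon tissue taken centimeters away from the anus, and whether any piece held squamous epithelium is not given. Of 40 other markers of squamous epithelium listed, only 12 had a row. Of these 12, 8 had values and 4 (Ivl, Calml3, Rhcg and Tmprss11d) were blank on all 4 arrays. Of the 8, 4 were higher and 4 lower in the MSCT group, with a median difference of 0.06, and 1 passed the screen, as higher. This was Cst6, a cysteine protease inhibitor, which was 2.82-fold higher (limma adjusted p 0.260). Aqp3, a water and glycerol channel that the colonic surface also carries, differed by 0.81 (standard error 0.26, adjusted p 0.374). The log2 of the summed intensity of the list was 14.34 and 14.22 in the control rats, against 14.89 and 14.53 in the MSCT rats, and Aqp3 made up the largest share of it. Without Aqp3 the sum of the other 7 was 13.27 and 13.19 in the control rats, against 13.06 and 13.10 in the MSCT rats. Fgfbp1 made up the largest share of this sum. Its intensities were 7960 and 7371 in the control rats, against 6186 and 5993 in the MSCT rats. Both MSCT arrays lay below both control arrays for Tgm1, a transglutaminase of the cornified envelope (-0.68), Sbsn (-0.50) and Fgfbp1 (-0.33), and above them for Cst6, Aqp3 and Serpinb5 (0.48). Of all rows, 24.5% lay below in this way and 21.3% above. For Tgm1 the nearest pair of arrays differed by only -0.04, and its MSCT arrays were 1.2 apart on the log2 scale. The unadjusted limma p of Sbsn was 0.0499 and its adjusted p 0.418. The part of squamous tissue in the value of Krt15 was not tested.

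The 2 keratin clusters of the genome were read in gene order. Of 43 keratin genes with a row, 12 had values and 31 (72.1%) were blank on all 4 arrays, against 27.1% of the curated rows with a name. How the blank rows came about is not described, and a blank row is not evidence that a gene was silent. On chromosome 10, which holds the type I genes, Krt13, Krt15 and Krt19 follow one another. Krt13 was blank, Krt15 was lower in the MSCT group by the screen, and Krt19 lay between its control values. On chromosome 7, Krt8 and Krt18 are neighbors at the end of the type II cluster, so that Krt18 is the type I gene that lies outside the cluster of its kind. Of the 27 keratin genes on this chromosome 6 had values, 14 were blank and 7 had no row. On chromosome 10, 6 of 27 had values, 17 were blank and 4 had no row.

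**Figure D3:**
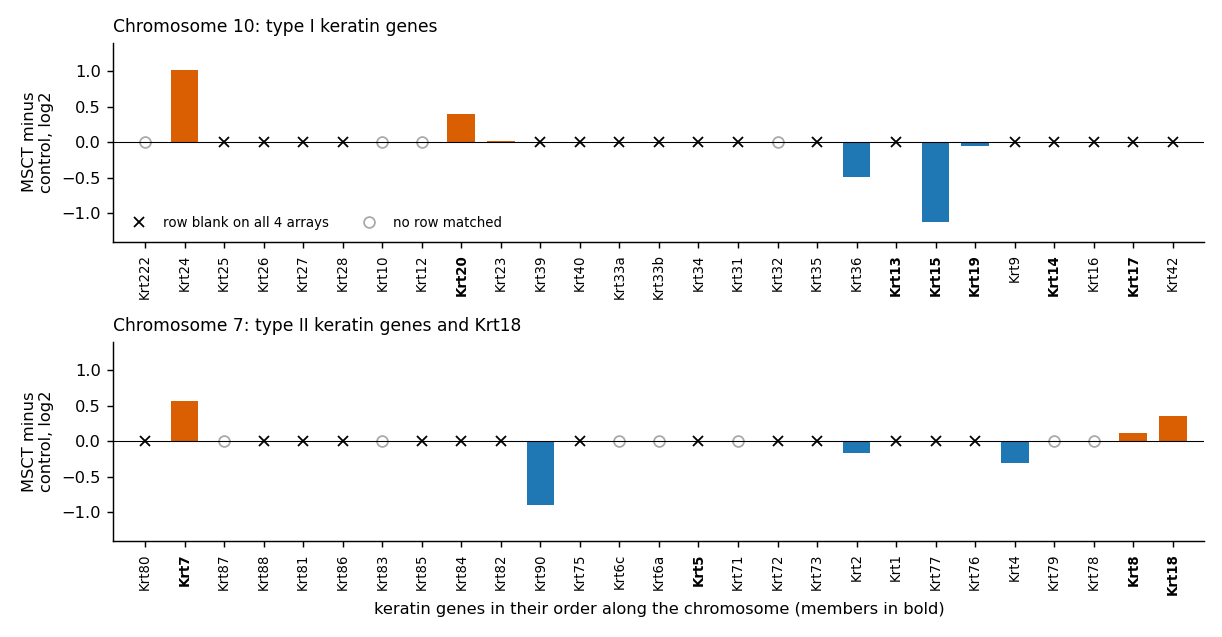
Keratin genes in their order along chromosomes 10 (top) and 7 (bottom) of the rat assembly GRCr8, with the difference between the groups on the log2 scale as bars (orange higher, blue lower in the MSCT group), crosses for rows blank on all 4 arrays and open circles for genes without a matched row. Values stand at 6 genes of each cluster, with bars of -1.12 at Krt15 and -0.05 at its neighbor Krt19.

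The other 6 keratins with values were Krt2, Krt4, Krt23, Krt24, Krt36 and Krt90, and none passed the screen. Krt4, the partner of Krt13 in squamous mucosa, had intensities of 144 and 142 in the control rats, against 112 and 119 in the MSCT rats, a difference of -0.31 (limma standard error 0.18, adjusted p 0.561). Like Krt15 it was lower on both MSCT arrays, as were 21.5% of the dimmest 25% of rows, to which both belong. Krt2, a keratin of the upper epidermis, overlapped between the groups (difference -0.17, standard error 0.51), as did Krt23 (0.02, standard error 0.21). Krt24 was at 51.2 and 137 in the control rats, against 177 and 163 in the MSCT rats, so that its 2.03-fold higher mean (limma adjusted p 0.506) came with control arrays 1.4 apart on the log2 scale. The hair keratin Krt36 differed by -0.49 and Krt90 by -0.89, with standard errors of 0.27 and 0.48. Like Krt4, both were lower on both MSCT arrays, Krt90 only barely. In all, 3 of the 6 lay below both control arrays and 1, Krt24, above them. The median of the 6 was -0.24, with 2 higher and 4 lower, and 5 of the 6 lay in the dimmest 25% of rows.

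**Figure D4:**
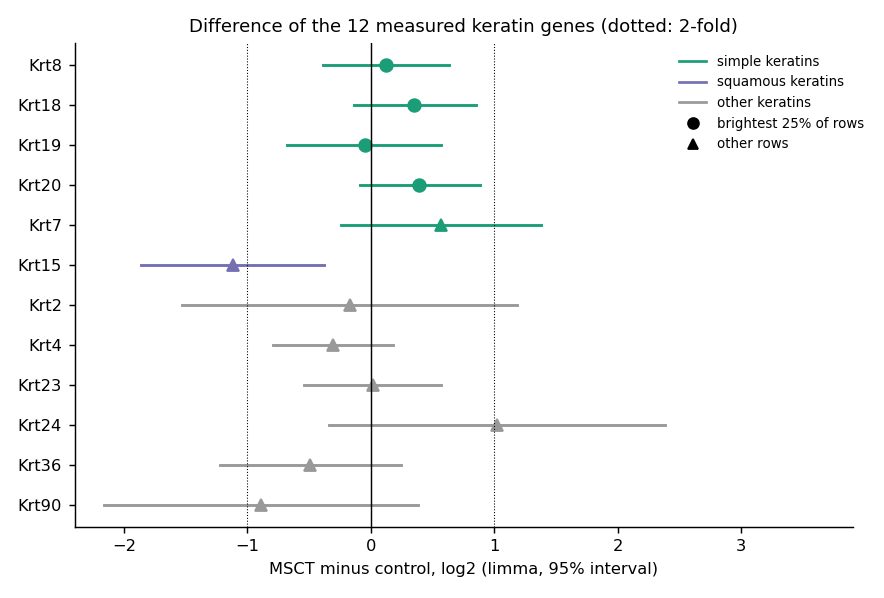
Difference between the groups on the log2 scale (MSCT minus control) for the 12 measured keratin genes, with the 95% interval of limma as a line, circles for rows in the brightest 25% and triangles for other rows. Only the interval of Krt15 (-1.86 to -0.38) leaves out 0.

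Genes that anchor keratin filaments were next read from a list. Of 24 listed genes 5 had a row and 4 had values. Of these 2 were higher and 2 lower, the median was -0.01 and none passed the screen. Jup, the desmosomal plakoglobin, had the largest difference at 0.41 (limma standard error 0.20, adjusted p 0.506), and both MSCT arrays lay above both control arrays. Itgb4, the hemidesmosomal integrin, differed by -0.22 (standard error 0.18, adjusted p 0.653).

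Of 22 kinases, chaperones and transcription factors that act on keratins or their genes, 11 were higher and 11 lower, with a median difference of -0.01, and 1 passed the screen. It was Fosl1, an AP-1 subunit, higher by 1.80 (limma standard error 0.33, adjusted p 0.269). Jun, another AP-1 subunit, differed by -0.83 (standard error 0.18, adjusted p 0.298), short of 2-fold.

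The intermediate filaments of other cell types did not move one way. Of 11 genes, 5 lay higher and 6 lower, with a median of -0.02, and none passed the screen. Vim, the vimentin of mesenchymal cells and leukocytes, differed by 0.68 (limma standard error 0.20, adjusted p 0.343), and Prph, the peripherin of peripheral neurons, by -0.84 (standard error 0.25, adjusted p 0.351). The unadjusted limma p was 0.0221 for Vim and 0.0246 for Prph.

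Markers of other cells in the wall were read beside the keratins. Of 10 leukocyte markers with values, 9 were higher, the median was 0.54, and 3 passed the screen as higher: Laptm5 (1.33), Cd68 (1.29) and Csf1r (1.00), the last pair being macrophage genes, with limma adjusted p-values of 0.260 to 0.270. Their summed intensity on the log2 scale was 13.76 and 13.94 in the control rats, against 14.09 and 14.30 in the MSCT rats, and 3 further markers were blank. Over all rows, 48.0% were higher and 2.12% passed the screen as higher. Of 9 markers of tuft and enteroendocrine cells, 6 were higher and 3 lower, the median was 0.63, and 2 passed as higher, the proglucagon gene Gcg (2.41, limma adjusted p 0.257) and Ptgs1 (1.28, 0.260). The other 4 that were higher are enteroendocrine genes, Chga (0.66), Chgb (0.69), Pyy (0.63) and Sst (0.41). The tuft cell genes of the list went both ways: Ptgs1 was higher, whereas Dclk1 (-0.37) and Avil (-0.49) were lower on both MSCT arrays. Neurod1 overlapped (-0.22). The summed intensity of the 9 was 13.28 and 13.36 in the control rats, against 14.11 and 14.03 in the MSCT rats on the log2 scale. Smooth muscle markers had a median of 0.01 over 10 genes and none past the screen, with Kcnmb1 at -0.53 and Myocd at -0.43. Markers of fibroblasts and mesothelium had a median of -0.05 over 10 genes and none past the screen. Among them Col1a2 differed by 0.62 and Dpp4, whose cells of origin in the pieces were not tested, by -0.94. The part of these other cells of the wall in the values of the keratins was not tested.

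**Figure D5:**
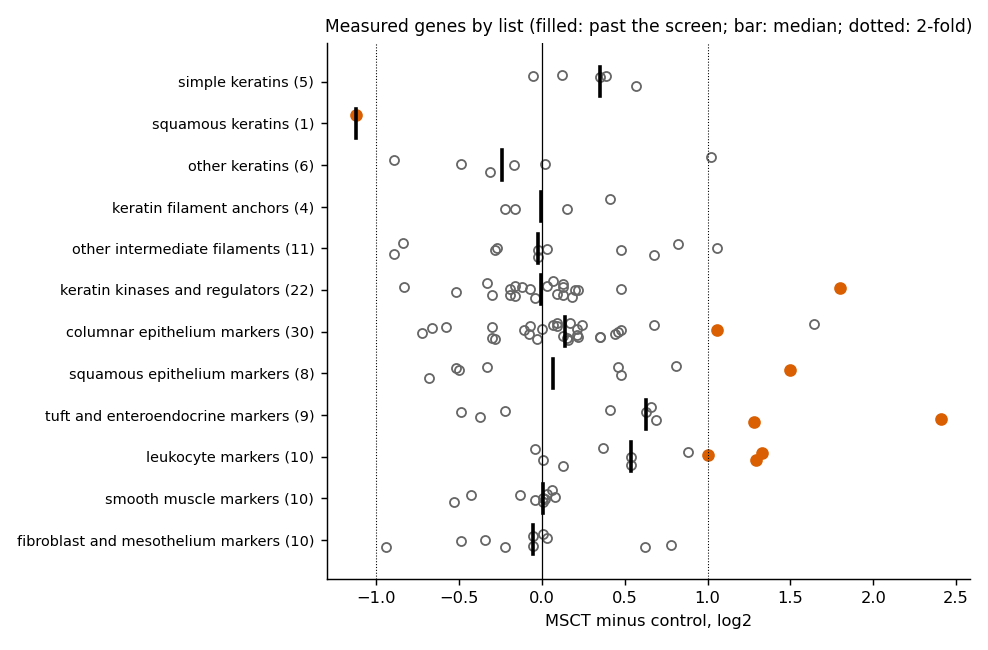
Difference between the groups on the log2 scale (MSCT minus control) for each measured gene of the keratin groups and the other lists, with the number of genes in brackets, the median as a bar and genes past the screen filled in orange. The median of the simple keratins (0.35) lay between those of the columnar markers (0.14) and of the leukocyte markers (0.54).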

How the data were processed

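Total RNA of colon tissue was copied into cDNA, labeled with Cy3 and hybridized to NimbleGen one-color arrays, 1 per rat. Scanning on an Axon GenePix instrument was followed by NimbleScan, and the authors deposited 1 linear intensity per RefSeq transcript and array. RMA is named in the submitters' processing notes without its role, and how the background was handled, how arrays were scaled and why 30.5% of rows are blank is not given in the sources used here. Probe sequences were not used here, so signal shared between similar keratins could not be checked.

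Deposited intensities were converted to log2 values without further scaling, and limma 3.58.1 in R 4.3.3 (lmFit, eBayes) compared MSCT with control arrays over 18350 rows, with Benjamini-Hochberg adjustment over all of them. Rows were named through the RefSeq table of GRCr8, which named 38.5% of the measured rows, and a gene with several rows was read from the one with the highest mean. Counts, motifs and figures were made in Python 3.11.15 (pandas 2.3.3, matplotlib 3.10.9).

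The members and lists were chosen with earlier results of these data known. Named are the members, every other keratin with values, the genes of each list past the screen or, where fewer than 2 passed, the pair with the smallest unadjusted p, and 4 reference genes. Epcam, Cdh1, Lgals4, the blank genes and further genes of the squamous, tuft and enteroendocrine lists were named after their values were seen, and the squamous sum without Aqp3 was added then. Alternatives covered the test (an equal-variance test between 2 groups, to which the paper's one-way analysis of variance reduces, called the methods' t-test although no test is named for the chips), scaling between arrays, filters on dim rows, a pseudocount of 50, the trend and robust options of eBayes together, weights per array, a block for the replicate number, single arrays left out, the fold limit and linear means.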

Additional observations from a re-analysis of the deposited data

How the results depend on the processing

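Under 15 alternatives, no keratin passed the screen as higher, and the single keratin past it as lower, Krt15, gave a count of 0 with the methods' t-test, without the dimmest 25% or 50% of rows (Krt15 is then left out), with log2(intensity + 50), with the trend and robust options of eBayes, and of 0 to 1 with single arrays left out. The count of keratins with an unadjusted p under 0.05 was 2 with the methods' t-test and with the trend and robust options (Krt18 and Krt20 in both), 2 with the replicate number as a block (replicate block; Krt7 and Krt15), 0 without the dimmest 25% of rows and 0 to 1 with single arrays left out. Without the dimmest 50% of rows it was 1, Krt20. The median of the simple keratins was 0.24 without the dimmest 25% or 50% of rows, which leaves out Krt7, and 0.26 to 0.38 with single arrays left out. Krt19 ranged from -0.26 to 0.15 when single arrays were left out, with a positive value without control replicate 1 or MSCT replicate 2. Krt8, Krt18, Krt20, Krt7 and Krt15 kept their direction in every alternative that measured them. Of the alternatives, Krt20 ranged from 0.36 to 0.43 and Krt18 from 0.31 to 0.40, with adjusted p-values from 0.120 to 0.865 and from 0.269 to 0.866. The labels do not say that a replicate number marks a shared day or litter, and the deviations of arrays with the same number correlated at 0.234 across rows. The choice between several rows of a gene was not run, since each keratin has 1. Groups of 2 arrays allow no test for an outlying array, and Krt7 and Krt15 are limited by their low signal. The cause of each change was not tested.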
